A study of Mus musculus with 2 samples.

Results

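The bone morphogenetic proteins (BMPs) and growth and differentiation factors (GDFs) measured here were 10 genes: Gdf5, Gdf6, Gdf10, Bmp1, Bmp2, Bmp3, Bmp4, Bmp5, Bmp6 and Bmp7. They were taken by symbol from the 33696 genes listed for both libraries, and all 10 had at least 10 UMIs (unique molecular identifiers, each standing for 1 captured RNA molecule) in the cells kept. The cells came from hindlimb digits of ICR mice in which digits 2 and 4 had been amputated through the middle phalanx (P2) at postnatal day 3 (PN3). At PN7 each digit received a bead carrying either FGF8 (500 ng/µl) or 0.1% BSA, and tissue distal to the stump was collected 24 h later, with the surrounding epithelium removed. Each treatment was a single library of pooled male and female cells from 20 digits of 5 mice, and the FGF8 pool probably held digits that would not have regenerated, since every treated digit was included.

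BMPs and GDFs are secreted dimers of the TGF-β superfamily that bind type I and type II serine/threonine kinase receptors and act through Smad proteins, and secreted antagonists such as Noggin and Chordin keep them from their receptors. In the limb skeleton they are known for starting cartilage condensation, for hypertrophic maturation of growth cartilage and for bone formation, and Gdf5 marks the joint interzone. Bmp1 is the exception in the family name: it encodes an astacin protease that trims procollagens and cleaves Chordin.

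The coding sequences show how the ligands fall into subgroups. The bases below are the last 72 coding bases before the stop codon (24 codons), read from GRCm39 at the Ensembl canonical transcripts of GENCODE vM39, 5′ to 3′ on the coding strand. They are shown because they hold the end of the cystine-knot fold that makes a gene a ligand of this superfamily, with its cysteine codons in capitals.
Gdf5, chr2:155783466-155783537, minus strand: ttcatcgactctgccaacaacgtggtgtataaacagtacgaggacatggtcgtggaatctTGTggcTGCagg
Gdf6, chr4:9860210-9860281, plus strand: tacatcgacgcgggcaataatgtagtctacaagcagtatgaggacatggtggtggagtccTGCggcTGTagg
Bmp2, chr2:133403561-133403632, plus strand: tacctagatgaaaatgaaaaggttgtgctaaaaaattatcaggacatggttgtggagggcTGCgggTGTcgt
Bmp4, chr14:46621319-46621390, minus strand: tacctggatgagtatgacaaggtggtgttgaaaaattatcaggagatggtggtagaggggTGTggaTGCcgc
Bmp6, chr13:38682970-38683041, plus strand: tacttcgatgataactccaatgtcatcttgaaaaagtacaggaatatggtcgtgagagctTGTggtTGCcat
Gdf10, chr14:33656396-33656467, plus strand: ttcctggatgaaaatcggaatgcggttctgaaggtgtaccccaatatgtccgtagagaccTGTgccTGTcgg
Each of the 9 ligands, Bmp3, Bmp5 and Bmp7 included, had 2 cysteine codons at the same place in this window. Set end to end with no gaps, the 6 pairs within a subgroup (Gdf5 with Gdf6, Bmp2 with Bmp4, Bmp3 with Gdf10, and Bmp5, Bmp6 and Bmp7 with each other) were identical at 70.8% to 81.9% of bases, and the 30 pairs between subgroups at 51.4% to 63.9%.

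After filtering, 6715 of 7249 barcodes of the FGF8 library and 3252 of 3703 of the BSA library were kept, with a median of 12251 and 15377 UMIs per cell. The labelled tissue was checked by markers: a fibroblast-like cluster (3322 FGF8 and 1713 BSA cells) was led by Mfap5 and Prrx2, and a chondrocyte-like cluster (141 and 66 cells) by Col2a1 and Col9a2. Keratinocyte-like cells (129 and 112) were present although epithelium was removed. The pools differed in sex: 24.6% of FGF8 cells and 79.3% of BSA cells that could be called by sex genes were female. The libraries shared 6 barcodes, of which 4 were kept in both.

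Levels are given as UMIs of a gene scaled to 1000000 UMIs of the same cells (CPM), and counts from 3′ ends do not grow with transcript length. With 1 library per condition no test of FGF8 against BSA was possible. Differences are log2 ratios of CPM, FGF8 over BSA, with exact 95% intervals that cover counting error only and not the spread between animals. Genes with at least 10 UMIs in the cells compared were read, and a log2 ratio above 1 or below -1 was called.

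The ligands were divided between cartilage and connective tissue. Bmp6 and Bmp2 were by far at their highest in chondrocyte-like cells, Bmp5 and Gdf5 were also at their highest there, and Bmp3, Bmp4 and Bmp1 were highest in fibroblast-like cells, among the 11 named cell types. The first place was the same in both libraries for these 7 genes, and the leading cell type's Poisson interval was clear of the type next in level except for Bmp4 in the FGF8 library. There fibroblast-like cells did not differ beyond counting error from keratinocyte-like or mast-like cells. For Gdf5 in the BSA library, the chondrocyte-like interval (2.93 to 11.2 CPM) overlapped those of some types with 0 UMIs, such as mast-like cells (up to 10.6 CPM).

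**Figure D1:**
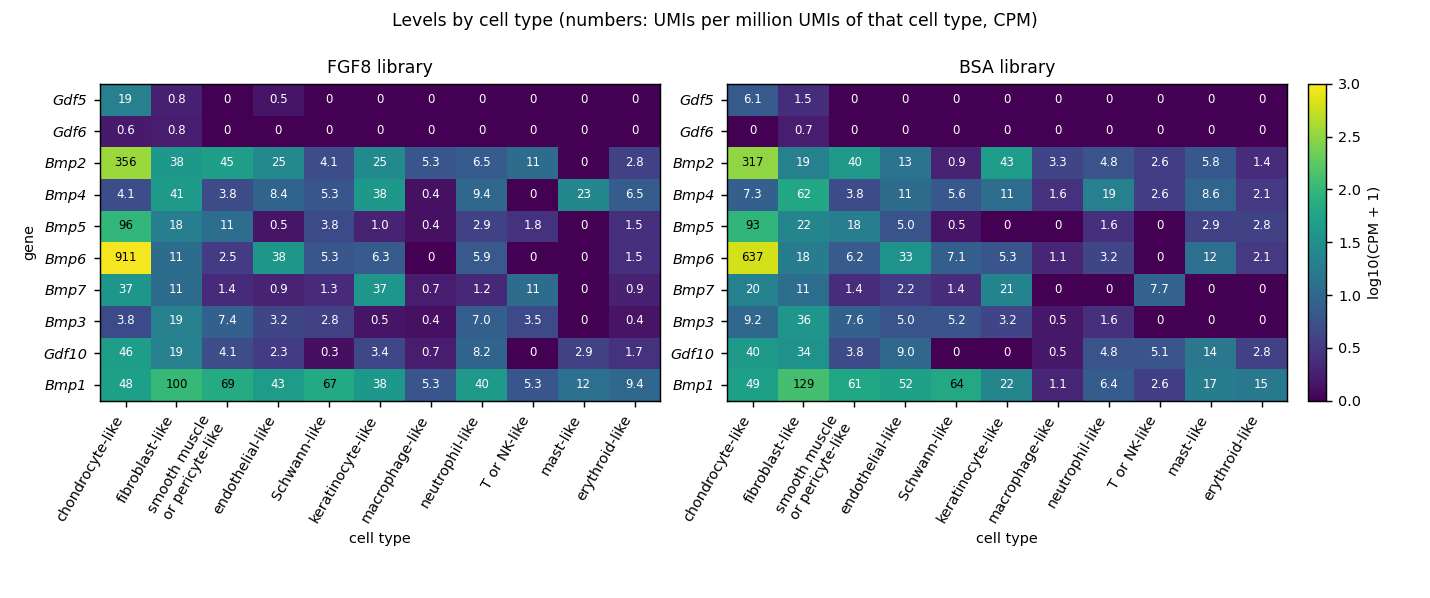
CPM of each gene (rows) in each of the 11 named cell types (columns) in the FGF8 and the BSA library, with colour on a log10(CPM + 1) scale. Bmp6 (911 and 637 CPM) and Bmp2 (356 and 317 CPM) in chondrocyte-like cells are the highest values, and Gdf5 and Gdf6 are at 0 in most other cell types.

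Bmp6 (chr13:38529065-38684280, plus strand, 7 exons), which marks maturing growth cartilage and is also the ligand by which liver endothelium sets iron balance, had 2891 UMIs in FGF8 and 1042 in BSA chondrocyte-like cells, or 911 CPM (interval 878 to 945) and 637 CPM (599 to 677). The chondrocyte-like cells were 2.10% and 2.03% of the cells kept, but held 74.9% and 58.1% of the Bmp6 UMIs of those cells. Endothelial-like cells came second, at 37.6 and 33.1 CPM, above fibroblast-like cells at 10.6 and 17.6 CPM in both libraries.

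Bmp2 (chr2:133394079-133404816, plus strand, 3 exons), an osteoinductive ligand, had 1129 and 518 UMIs in chondrocyte-like cells, 356 CPM (335 to 377) under FGF8 and 317 CPM (290 to 345) under BSA. Smooth muscle or pericyte-like cells had 45.3 and 40.0 CPM, keratinocyte-like cells 25.2 and 42.7 CPM, and fibroblast-like cells 38.3 and 19.3 CPM. Because fibroblast-like cells are many, they still held 63.3% (FGF8) and 48.4% (BSA) of the Bmp2 UMIs of the cells kept.

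Bmp5 (chr9:75682638-75807592, plus strand, 7 exons), whose loss gives the short-ear mouse with its skeletal defects, had 96.4 and 93.0 CPM in chondrocyte-like cells against 18.0 and 22.2 CPM in fibroblast-like cells. Bmp7 (chr2:172709805-172782410, minus strand, 7 exons), best known from kidney and eye development, had 36.9 and 19.6 CPM in chondrocyte-like cells and 36.8 and 21.4 CPM in keratinocyte-like cells, 2 levels that did not differ beyond counting error in either library. In 2 small clusters left unnamed, led by hair and nail keratins (Krt35, Krt32 and Krt82 in 1, Krt73, Krt28 and Krt71 in the other), Bmp7 reached 109 and 90.9 CPM and 48.3 and 57.7 CPM, and Bmp4 74.2 and 70.3 CPM and 67.0 and 79.3 CPM.

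Gdf5 (chr2:155782943-155787287, minus strand, 2 exons), the joint interzone factor, was sparse: 123 UMIs in all kept FGF8 cells and 64 in all kept BSA cells. Chondrocyte-like cells held 61 and 10 of these and fibroblast-like cells 58 and 52. No UMI was found in Schwann-like, keratinocyte-like, macrophage-like, neutrophil-like, T or NK-like, mast-like or erythroid-like cells of either library. Among these, a count of 0 allowed up to 0.654 CPM at the lowest (FGF8 erythroid-like cells) and up to 8.70 CPM at the highest (FGF8 mast-like cells). Gdf6 (chr4:9844350-9862354, plus strand, 2 exons), its closest relative, which patterns joints and the skull, was rarer still, with 56 and 26 UMIs, of which fibroblast-like cells held 53 and 25.

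Bmp4 (chr14:46620250-46636745, minus strand, 4 exons), a ligand of limb mesenchyme and hair follicle, had 40.9 and 61.9 CPM in fibroblast-like cells but only 4.10 and 7.34 CPM in chondrocyte-like cells. Bmp3 (chr5:99002268-99032255, plus strand, 3 exons), which restrains bone formation and is made by cells of the osteoblast line, had 19.3 and 35.5 CPM in fibroblast-like cells and 3.78 and 9.18 CPM in chondrocyte-like cells. Its partner Gdf10 (chr14:33645273-33659940, plus strand, 3 exons) was at 46.3 and 39.8 CPM in chondrocyte-like cells and at 19.3 and 33.7 CPM in fibroblast-like cells, and in the BSA library these 2 did not differ beyond counting error.

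Bmp1 (chr14:70711689-70758178, minus strand, 20 exons) was the broadest of the 10. It had 100.4 and 128.5 CPM in fibroblast-like cells, and between 43.1 and 69.1 CPM in smooth muscle or pericyte-like, Schwann-like, endothelial-like and chondrocyte-like cells of both libraries.

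Free RNA can add a background under such values, and it was not estimated here. Neutrophil-like cells, taken as cells without these ligands, had a Bmp2 UMI in 1.67% of FGF8 and 1.27% of BSA cells. Their median depth was 2417.5 and 3214 UMIs. In fibroblast-like cells the shares were 25.3% and 19.4%, at 18612 and 20135 UMIs. With every cell thinned to 2000 UMIs, the shares were 1.48% and 0.676% in neutrophil-like cells, 5.43% and 4.49% in fibroblast-like cells and 36.5% and 32.2% in chondrocyte-like cells. Thinned Bmp4 shares in fibroblast-like cells were 9.91% and 12.5%, against 0.988% and 0.676% in neutrophil-like cells. Counts in neutrophil-like cells were not an even background. Their 12 BSA Bmp4 UMIs were in 2 cells, and Bmp1 was at 39.9 CPM under FGF8 and 6.43 CPM under BSA. Thinned Gdf5 shares in fibroblast-like cells, 0.221% and 0.369%, were near the level of single UMIs and were not read further.

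The genes whose levels over the 22 combinations of cell type and library went most closely with a member were found among 16249 genes by Pearson's correlation of log2(CPM + 10), as a description, since these points share libraries and depth. Gdf5 went with Il1rapl2 (r = 0.99), Mmp10 (0.98) and Cytl1 (0.98), Bmp6 with Slc38a3, Gm47990 and Crispld1 (each 0.96), and Bmp2 with Hspb6, Ak4 (each 0.93) and Zfp804b (0.92). Bmp3 went with Ndrg4 (0.94), Hand2 and Hdnr (each 0.93), and Gdf10 with Kazald1, Ibsp and Kcnma1 (each 0.92). Bmp4 went less closely with Scx (0.84), the tendon transcription factor, Nkain3 (0.83) and Ostn (0.82). Bmp1 went with Parva (0.96), Rbfox2 and Mpdz (each 0.95), and Bmp5 with Gm49969, Sobp (each 0.97) and Unc5c (0.96). Bmp7 went with Gm26652, C1qtnf4 (each 0.92) and Arc (0.89). Among the members, Gdf5 and Bmp6 were the closest pair (r = 0.90). Gdf5 was at 19.2 and 6.12 CPM in chondrocyte-like cells and at most 1.46 CPM in the other named types. Its correlations therefore rest on that 1 cell type.

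FGF8 was then compared with BSA in fibroblast-like cells, the question being whether the growth factor on the bead went with a different supply of BMP ligands in the wound connective tissue. Bmp2 was higher under FGF8 and the other ligands with enough UMIs to read were mostly lower. No member was called: 0 of 10 were above 1, against 6.45% of the 20052 genes read, and 0 of 10 were below -1, against 5.11%. The log2 ratio was below 0 for 8 of the 10 members and for 56.0% of all genes, and the median was -0.48 over the members and -0.074 over all genes.

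**Figure D2:**
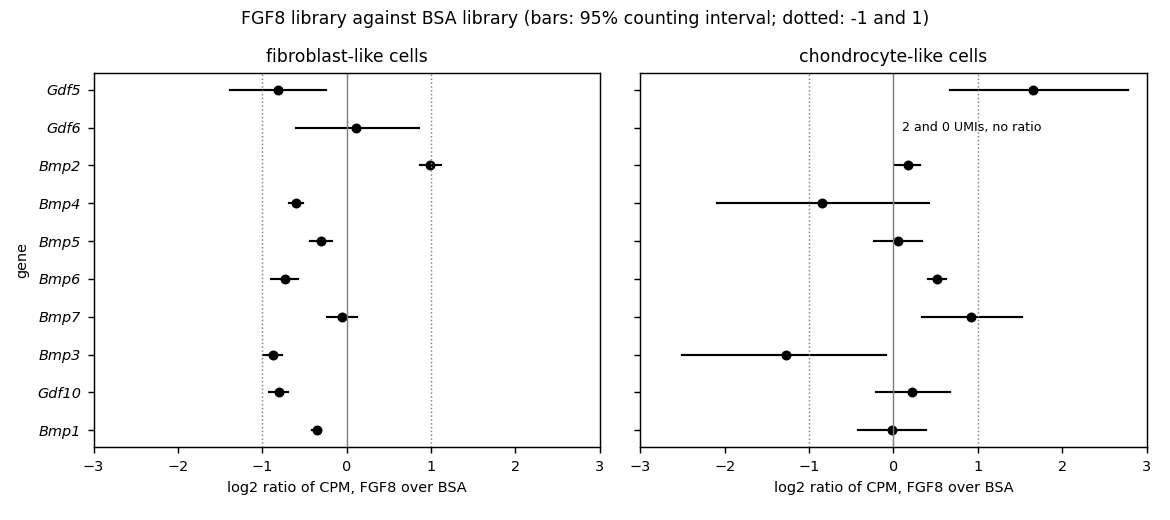
Log2 ratio of CPM, FGF8 over BSA, for each gene in fibroblast-like (left) and chondrocyte-like (right) cells; points are ratios, bars are exact 95% counting intervals and dotted lines mark -1 and 1. Bmp2 lies at 0.99 in fibroblast-like cells while Gdf10, Bmp3, Bmp4 and Bmp6 lie below 0, and Gdf5 lies below 0 on the left and at 1.65 on the right.

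Bmp2 had 2674 UMIs in FGF8 and 685 in BSA fibroblast-like cells, 38.3 CPM (36.8 to 39.8) against 19.3 CPM (17.9 to 20.8). The log2 ratio was 0.99 (0.87 to 1.11), a 1.99-fold higher level that stood at the threshold. Within the sexes it was 1.10 (female-called) and 0.94 (male-called). The UMIs were uneven: 33 cells, 1% of the FGF8 fibroblast-like cells, held 29.0% of them, with up to 46 in 1 cell, and without the top 1% of each library, a setting chosen after seeing the data, the log2 ratio was 0.87. The difference depended on which cells were taken as fibroblast-like. It was 0.089 (-0.15 to 0.33) at a finer clustering, which set apart the Prg4-led cells and many others. It was 0.37 (0.17 to 0.57) with types called cell by cell, and 0.37 (-0.019 to 0.76) with cells thinned to 2000 UMIs.

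Bmp3 was at 19.3 CPM against 35.5 CPM, a log2 ratio of -0.88 (-0.99 to -0.77). Gdf10 was at 19.3 CPM against 33.7 CPM, -0.81 (-0.92 to -0.69). These 2 relatives were also lower in both sexes, at -0.81 (Bmp3) and -0.92 (Gdf10) among female-called and at -0.83 and -0.60 among male-called cells. Bmp6 was at 10.6 against 17.6 CPM, with a log2 ratio of -0.74 (-0.89 to -0.58), and Bmp4 at 40.9 against 61.9 CPM, with -0.60 (-0.68 to -0.52). Bmp1 (-0.36) and Bmp5 (-0.30) were lower by less. At the finer clustering Bmp3 was at -0.26 (-0.39 to -0.13), Bmp4 at -0.13 (-0.22 to -0.031), Bmp6 at -0.53 (-0.72 to -0.33), and for Gdf10 (0.13) and Bmp1 (0.038) the interval included 0.

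Gdf5 had 58 UMIs in 48 FGF8 cells and 52 UMIs in 37 BSA cells, or 0.830 CPM (0.630 to 1.07) and 1.46 CPM (1.09 to 1.92). The log2 ratio was -0.82 (-1.38 to -0.25). It was -0.081 with a stricter cell filter, and 0.93 on 11 and 5 UMIs at the finer clustering. For Gdf6, at 0.759 and 0.703 CPM, and Bmp7, with 739 and 391 UMIs, the intervals included 0, and no difference was detectable at this depth. At the finer clustering Gdf6 was at 2.21 (0.40 to 4.63), on 16 and 3 UMIs. Bmp7 was at -0.63 (-0.94 to -0.30) among male-called cells and at 0.18 (-0.11 to 0.46) among female-called ones.

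Fibroblast-like cells were divided into 6 subclusters, which are numbered and described by their leading genes, since none met the rule for a name. Subcluster 0 was led by Prg4 (lubricin), Mmp3 and cell-cycle genes, 1 by Nrg1 and Sema3a, 2 by Lpl and Dlk1, 3 by Fmod and Comp, 4 by Lars2 and Camk1d with a median of only 2591 and 2637 UMIs per cell, and 5 by Corin, Sox18 and Alx4. Subcluster 0 made up 16.0% of FGF8 and 8.46% of BSA cells kept, and subcluster 1 made up 10.3% and 15.9%. In the fibroblast-like cells together the markers of synovial lining summed to 2038 CPM (FGF8) and 278 CPM (BSA), but only 1 of the 4 was higher under FGF8 and their median log2 ratio was -0.63. Their part in the ratios of the members was not tested.

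**Figure D3:**
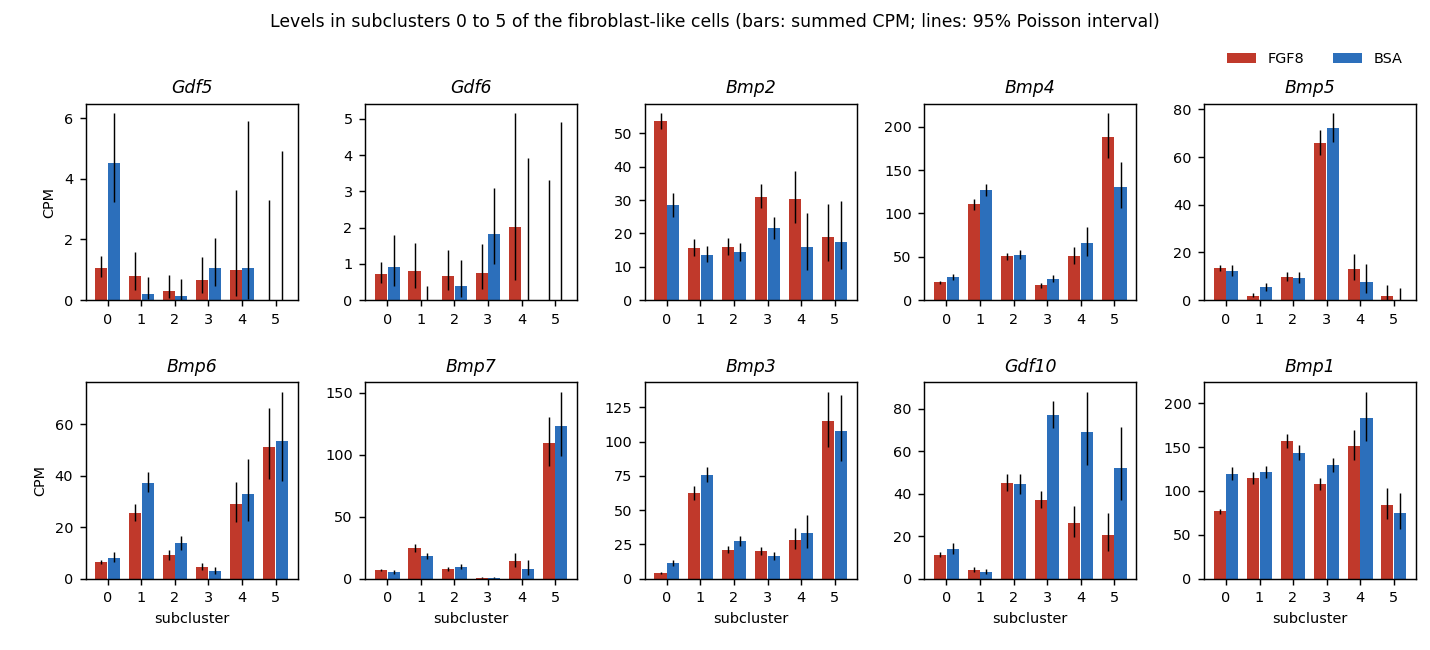
CPM of each gene in the 6 subclusters of fibroblast-like cells in the FGF8 (red) and BSA (blue) libraries, with exact 95% Poisson intervals. Bmp3, Bmp4, Bmp6 and Bmp7 are highest in subcluster 5, Bmp5 in subcluster 3, and Bmp2 under FGF8 in subcluster 0. Under BSA, Bmp4 and Bmp6 in subcluster 5 did not differ beyond counting error from subcluster 1.

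In subcluster 5, whose leading genes include Sox18 and Corin of the dermal papilla, 80 FGF8 and 38 BSA cells had 188 and 131 CPM of Bmp4, 115 and 108 CPM of Bmp3, 109 and 123 CPM of Bmp7 and 51.1 and 53.4 CPM of Bmp6. Subcluster 1 came next for Bmp4 (110 and 127 CPM) and Bmp3 (62.2 and 75.7 CPM). Under BSA, Bmp4 and Bmp6 in subclusters 5 and 1 did not differ beyond counting error. Bmp5 was the Fmod- and Comp-led subcluster's ligand, at 66.1 and 72.1 CPM in subcluster 3 and between 0 and 13.4 CPM in the other 5. Gdf10 was at 36.9 and 76.9 CPM in subcluster 3 and at 45.0 and 44.3 CPM in subcluster 2. These subclusters were found without the members among their features, but from the same cells, so their differences are given as a description.

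Bmp2 was higher under FGF8 mainly in subcluster 0, at 53.6 CPM (1984 UMIs) against 28.4 CPM (251 UMIs), a log2 ratio of 0.92 (0.73 to 1.11), and in the shallow subcluster 4 (0.92). It was at 0.53 (0.25 to 0.81) in subcluster 3. In subclusters 1, 2 and 5 the ratios were 0.20, 0.15 and 0.12, with intervals that included 0. With the subclusters weighted as in the BSA library, also chosen after seeing the data, the log2 ratio of Bmp2 over the fibroblast-like cells was 0.58.

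The same weighting brought Bmp3 from -0.88 to -0.26, Bmp4 from -0.60 to -0.18, Bmp6 from -0.74 to -0.42 and Gdf10 from -0.81 to -0.55. Gdf10 kept a difference inside subclusters 3 (-1.06), 4 (-1.40) and 5 (-1.34), while in subcluster 2 it was at 0.024 (-0.18 to 0.23). Bmp3 was lowest against BSA inside subcluster 0, at 3.84 CPM (142 UMIs) against 10.98 CPM (97 UMIs) (-1.52, -1.90 to -1.13), and in subcluster 5 it was at 0.086 (-0.33 to 0.51).

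The Prg4-led subcluster 0, whose cells were the deepest, had 39 of the 58 FGF8 and 40 of the 52 BSA Gdf5 UMIs of fibroblast-like cells. Under BSA it was at 4.53 CPM, with the other 5 subclusters between 0 and 1.06 CPM. Under FGF8 it was at 1.05 CPM (0.749 to 1.44), which did not differ beyond counting error from subcluster 1 at 0.801 CPM (0.346 to 1.58). The log2 ratio in subcluster 0 was -2.10 (-2.78 to -1.43). Female-called cells of this subcluster had 2 UMIs under FGF8 and 31 under BSA, a log2 ratio of -4.35. Male-called cells had 35 and 7, a log2 ratio of -1.35 with an interval that included 0 (-2.54 to 0.064).

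Osteoblast genes marked a few fibroblast-like cells. Taking cells with UMIs of at least 3 of 7 osteoblast markers, a rule chosen after the values were seen, gave 78 FGF8 and 35 BSA cells, of which 40 and 20 had exactly 3. Bmp2 was at 87.3 and 61.7 CPM in them, Bmp5 at 76.8 and 83.9 CPM, and Bmp3 at 43.4 CPM (83 UMIs) against 9.65 CPM (10 UMIs). The log2 ratio of Bmp3 in these cells was 2.17 (1.22 to 3.28), while in the remaining fibroblast-like cells it was -0.96 (-1.07 to -0.85). Only 23 of the 78 FGF8 and 6 of the 35 BSA cells had a Bmp3 UMI. Of the 83 FGF8 UMIs, 20 were in 1 cell, an unevenness that the interval does not cover.

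In the chondrocyte-like cells the picture was different. Gdf5 was higher under FGF8, Bmp6 and Bmp7 were higher by less, and Bmp2 and Bmp5 were at nearly the same level. Of 9 members with at least 10 UMIs, 1 (Gdf5) was above 1, against 10.3% of the 12083 genes read, and 1 (Bmp3) was below -1, against 6.49%. The share of called members was close to that of all genes. The median log2 ratio was 0.17 over the members and -0.056 over all genes.

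For Gdf5 there were 61 UMIs under FGF8, found in 29 cells (20.6%, exact binomial interval 14.2 to 28.2), and 10 under BSA, found in 5 cells (7.58%, 2.51 to 16.8). Its level was 19.2 CPM (14.7 to 24.7) against 6.12 CPM (2.93 to 11.2), a 3.14-fold difference and a log2 ratio of 1.65 (0.68 to 2.78). Of the Gdf5 UMIs in cells kept, chondrocyte-like cells held 49.6% (FGF8) and 15.6% (BSA). Over all kept cells Gdf5 was at 1.19 and 1.18 CPM, a log2 ratio of 0.018 (-0.43 to 0.48).

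The Gdf5 difference was seen among female-called cells, with 39 UMIs in 40 FGF8 cells and 6 in 41 BSA cells (log2 ratio 2.92, 1.67 to 4.46). In male-called cells it was -0.42 (-2.02 to 1.60), from 18 UMIs in 80 FGF8 cells and 4 in only 14 BSA cells. With each cell given the same weight the log2 ratio was 0.32.

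Markers of some other cell types were higher in the FGF8 chondrocyte-like cells and those of others lower. Macrophage markers summed to 105 CPM against 9.18 CPM in BSA, with 6 and 4 of 6 seen and Adgre1 and Mrc1 at 0 under BSA. Neutrophil markers summed to 164 CPM against 3.06 CPM, with 5 and 2 of 6 seen and Ly6g at 0 in both libraries, keratinocyte markers (7 and 6 of 7 seen) to 108 against 36.1 CPM, and erythroid markers (5 and 4 of 6 seen) to 2373 against 131 CPM. Fibroblast markers summed to 1569 against 2147 CPM and tenocyte markers to 225 against 575 CPM, with 0 of 7 and 0 of the 5 with at least 10 UMIs higher under FGF8, and 0 of the 8 chondrocyte markers was higher (median log2 ratio -0.68). Their part in the Gdf5 difference was not tested. Cells with no UMI of a macrophage, neutrophil or keratinocyte marker were 28 of 141 FGF8 and 27 of 66 BSA cells. In them Gdf5 had 8 and 5 UMIs and a log2 ratio of 0.74 (-1.05 to 2.70). Cells with fewer UMIs pass this rule more easily, and depth was not matched.

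Bmp6 was at 911 against 637 CPM, with a log2 ratio of 0.51 (0.41 to 0.62), and Bmp7 at 36.9 against 19.6 CPM, with 0.91 (0.34 to 1.53). Bmp2 was at 0.17 (0.015 to 0.32), Gdf10 at 0.22 (-0.21 to 0.66) and Bmp5 at 0.052 (-0.23 to 0.34). Bmp3 was at -1.28 (-2.51 to -0.085), on 12 and 15 UMIs. Gdf6 had 2 and 0 UMIs and gave no ratio.

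Bmp6 differed widely from cell to cell. Of the 141 FGF8 cells 36 had no Bmp6 UMI and 43 had 20 or more, up to 205, and of the 66 BSA cells 34 had none and 10 had 20 or more, up to 165. Chondrocyte-like cells were therefore divided by a rule chosen after the values were seen, at least 1 UMI of Ihh or at least 10 UMIs of Col10a1, which are genes of prehypertrophic and hypertrophic cartilage. This took 64 FGF8 and 18 BSA cells. The 77 and 48 remaining cells had no Ihh UMI and at most 9 of Col10a1, and 23 and 8 cells lay near the cut, with 1 Ihh UMI or 1 to 9 Col10a1 UMIs.

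In the Ihh or Col10a1 cells Bmp6 was at 1250 CPM under FGF8 and 1396 CPM under BSA (log2 ratio -0.16, -0.27 to -0.049). In the remaining cells it was at 500.5 CPM against 67.5 CPM, a log2 ratio of 2.89 (2.52 to 3.29). Bmp2 was divided alike, at 340 against 528 CPM in the Ihh or Col10a1 cells and at 375 against 159 CPM in the others (log2 ratios -0.64 and 1.24). Gdf5 was higher under FGF8 in both, at 20.7 against 7.13 CPM (36 and 5 UMIs) and at 17.4 against 5.36 CPM (25 and 5 UMIs). The BSA values rest on few cells: 3 Ihh or Col10a1 cells and 2 remaining cells had a Gdf5 UMI. Of these 2 remaining cells, 1 held 4 of the 5 UMIs. Bmp2 was uneven too: 1 BSA Ihh or Col10a1 cell held 95 of 370 UMIs, and 1 BSA remaining cell held 43 of 148. Among FGF8 remaining cells, 1 held 100 of 539 Bmp2 UMIs. Counting intervals do not cover this unevenness.

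**Figure D4:**
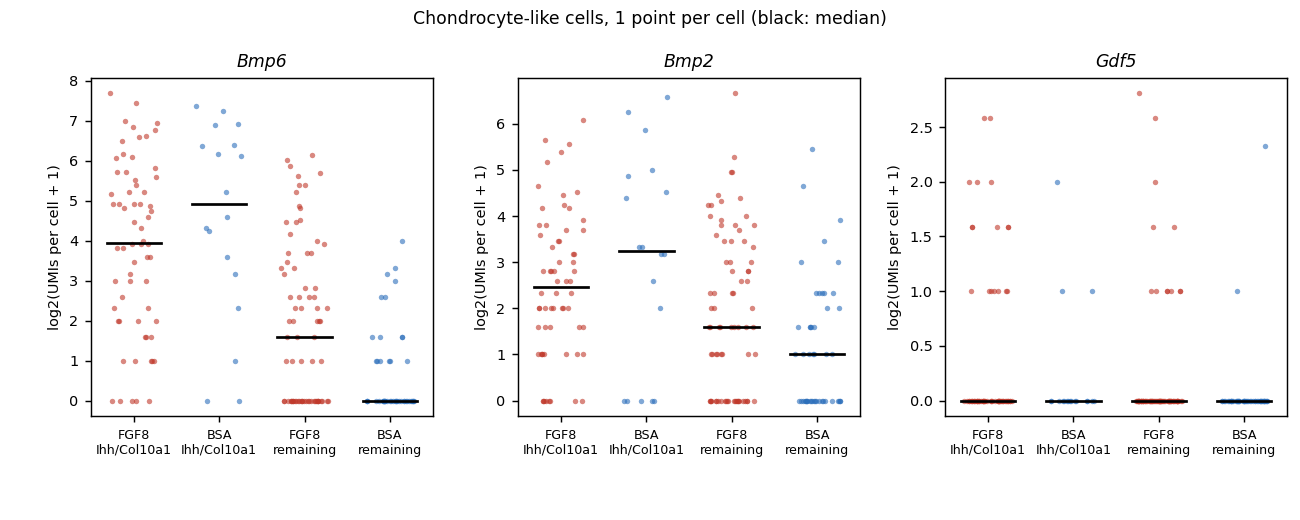
UMIs per cell, as log2(UMIs + 1), of Bmp6, Bmp2 and Gdf5 in chondrocyte-like cells, divided by library and into Ihh or Col10a1 cells and remaining cells as defined in the text; each point is a cell and black lines are medians. In the remaining cells the median Bmp6 count is 2 under FGF8 and 0 under BSA, and in the others it is 14.5 and 29.5.

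Within the sexes the remaining cells had Bmp6 log2 ratios of 2.55 (female-called) and 3.64 (male-called). Over all chondrocyte-like cells Bmp6 was at -0.23 among female-called cells and at 3.50 among male-called ones, and Bmp2 at -0.16 and 1.79. Only 14 male-called BSA cells were chondrocyte-like, and 1 of them had Ihh or Col10a1.

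**Figure D5:**
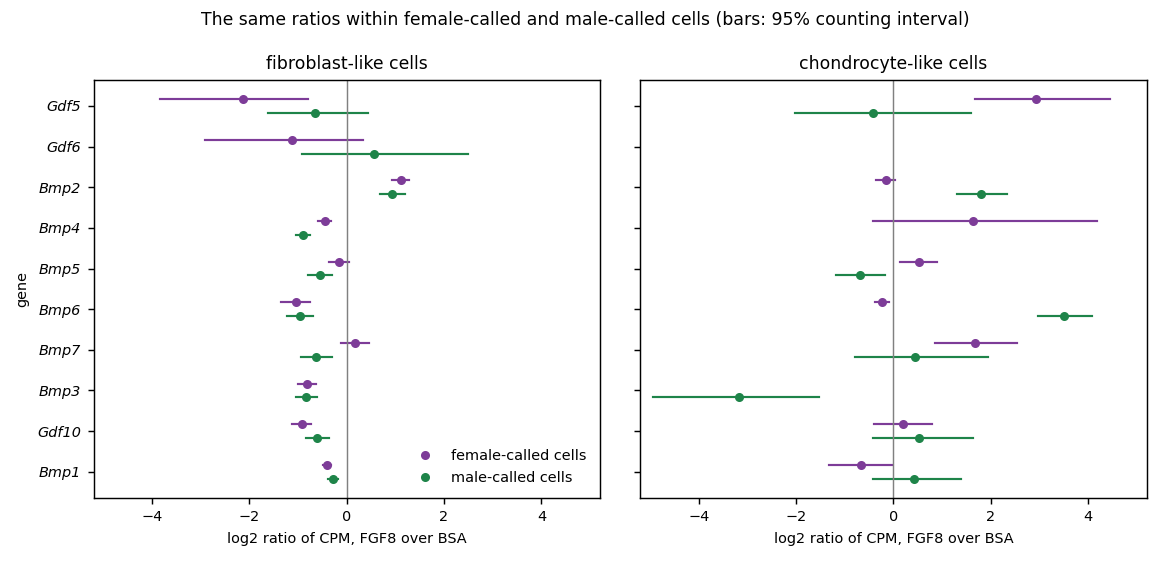
Log2 ratio of CPM, FGF8 over BSA, within female-called and male-called cells, for fibroblast-like (left) and chondrocyte-like (right) cells; bars are exact 95% counting intervals and genes with fewer than 10 UMIs are left out. In fibroblast-like cells Bmp2 lies above 0 and Bmp3, Bmp4, Bmp6, Gdf10 and Bmp1 below 0 in both sexes, and in chondrocyte-like cells the ratios of Bmp6 and Bmp2 lie apart between the sexes, a difference that was not tested.

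Over all kept cells Bmp2 was at 40.9 CPM (4221 UMIs) under FGF8 and 26.0 CPM (1414 UMIs) under BSA, a log2 ratio of 0.65 (0.57 to 0.74), and within the sexes it was 0.78 (female-called) and 1.07 (male-called). Bmp6 was at 0.18, Bmp7 at 0.13, Bmp5 at -0.23, Bmp1 at -0.28, Bmp4 at -0.48, Gdf10 at -0.68 and Bmp3 at -0.81.

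Ligands were often found together in a cell. A fibroblast-like cell had UMIs of a median of 2 of the 10 members in both libraries, and a chondrocyte-like cell of 4 under FGF8 and 3 under BSA. In FGF8 fibroblast-like cells 360 cells had both Bmp2 and Bmp4, which was 42.9% of the Bmp2 cells and 29.3% of the Bmp4 cells, and under BSA 191 cells were 57.5% and 23.9%. Among all fibroblast-like cells Bmp4 was found in 37.0% (FGF8) and 46.7% (BSA). Whether the 2 ligands shared cells beyond their separate frequencies was not tested. These shares depend on depth and were not compared between libraries.

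The rest of the pathway was read from lists of receptors, antagonists, Smads, targets and processing enzymes holding 65 genes, and fibroblast-like cells gave 10 UMIs or more for 58 of them. Of these, 4 were above 1 and 2 below -1, against 6.45% and 5.11% of all genes, and the median was -0.24. The shares called were close to those of all genes. Of the 4 above 1, Smad9 (1.48), Smad7 (1.01) and Fst (1.42) are a BMP-responsive Smad, an inhibitory Smad and the gene of the antagonist follistatin, and Pcolce2 (1.28) enhances the procollagen cleavage by Bmp1. Fst was at 212 CPM against 79.3 CPM. Chrd, the gene of Chordin, was below -1 at 3.71 against 8.49 CPM (-1.20). Bmp15 was too, on 18 UMIs and with an interval that included 0.

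Among 9 targets none passed 1, but Id1 (0.91), Id3 (0.81) and Atoh8 (0.82), which Smads are known to induce, were the furthest from 0, with Id1 at 275 CPM against 147 CPM. The other 6 targets were below 0, from -0.045 (Id2, with an interval that included 0) to -0.61 (Hey1), and the median over the 9 was -0.13. All 7 type I and II receptors were measured and lay between -0.43 and 0.19, with Acvrl1 at -0.43, Acvr2b at -0.41 and Acvr2a at -0.36. The co-receptors Eng (-0.46), Rgma (-0.36) and Rgmb (-0.34), the antagonist Chrdl1 (-0.89) and the Smad5 gene (-0.28) were lower. Of 5 co-receptors read, 4 had intervals below 0, and Bambi (0.23, 0.11 to 0.36) was higher. Of 16 secreted antagonists read, 10 had intervals below 0 and 1, that of Fst, lay above 0. Of the 6 Smads, 3 had intervals above 0 and 3 below. Of the proteases that cut ligand precursors Pcsk6 was at -0.62, Pcsk7 at -0.18 and Pcsk5 at 0.17. The Bmp1-like protease Tll1 was at 0.50 and Pcolce at -0.29, and of the ligands outside the 10, Gdf15 was at 0.77, Bmp8a at 0.67 and Mstn at -0.25.

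In chondrocyte-like cells 49 of the 65 genes had at least 10 UMIs, 1 above 1 and 7 below -1, against 10.3% and 6.49% of all genes. Tll1 (36.2 against 124 CPM, -1.77), Pcolce (56.1 against 212 CPM, -1.92) and Chrdl1 (18.9 against 59.3 CPM, -1.65) were lower, and the 1 above 1, Acvr2b, rested on 10 UMIs. Id1 was at 0.16 (-0.028 to 0.35) and Id3 at -0.52 there, away from their ratios in fibroblast-like cells, a difference that was not tested.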

How the data were processed

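The authors captured cells with 10x 3′ chemistry (version 3.1), ran Cell Ranger 9.0.0 with the GRCm39 reference and deposited raw UMI counts per gene and barcode, before their filters. The submitters' processing notes also name mm10. The gene identifiers of all 10 members matched GENCODE vM39 on GRCm39. Following the study's methods, a barcode was kept if it had over 200 and under 7500 genes and less than 15% mitochondrial UMIs. The libraries held 124889213 (FGF8) and 67739460 (BSA) UMIs in all, and 103223720 and 54376379 in the cells kept.

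Libraries were normalized by SCTransform and integrated by CCA in Seurat 5.3.0 (sctransform 0.4.2, R 4.3.3) with 30 principal components at a resolution of 0.05, on 2965 of 3000 variable features, leaving out the members, their pathway lists and sex genes. Fibroblast-like cells and a mixed cluster were re-clustered at 0.2. Clusters were named from marker lists, by a scoring rule set after the data were seen: a marker had to be among the 10 leading genes, and differences from the study's cell types may come from these rebuilt names. Scrublet (scanpy 1.11.5) marked 0 doublets in both libraries and so had not worked. Cells were called female or male from Xist and Y-linked genes.

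Sums of UMIs over the cells of each type in each library were made with Python 3.11.15. Ratios have exact conditional intervals, CPM Poisson intervals and shares Clopper-Pearson intervals, all at 95% and for counting error only; a count of 0 was given as a limit of 3 counts. The script was tested on simulated data. The genes named are all 10 members, per pathway role up to 3 genes with the largest log2 ratio and at least 100 UMIs in fibroblast-like cells, and 3 genes most like each member. Gdf6, with fewer than 100 UMIs, was left out of the last. Genes of subclusters, of marker lists, of cartilage and of the remaining calls were named after their values were seen. The members and lists were chosen with earlier results of these data known.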

Additional observations from a re-analysis of the deposited data

Results flagged for a closer look

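Several ligands went in opposite directions in 2 cell types, with counting intervals on either side of 0. With 1 library per condition none of these differences was tested. Gdf5 was at a log2 ratio of 1.65 in chondrocyte-like cells and -0.82 in fibroblast-like cells. Bmp6 was at 0.51 and -0.74 in the same cells. In keratinocyte-like cells Bmp4 (1.84) and Bmp1 (0.77) were higher and Bmp2 (-0.76) lower under FGF8, each opposite to fibroblast-like cells. The keratinocyte-like cells had a median of 10221 UMIs in the FGF8 and 2049.5 in the BSA library. Bmp1 was at 2.63 in neutrophil-like cells (68 and 4 UMIs) and at 2.27 in macrophage-like cells (15 and 2 UMIs). Bmp5 was at 2.997 in Schwann-like cells, where 11 of the 12 FGF8 UMIs were in 1 cell and BSA had 1 UMI.

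The sexes also went opposite ways in chondrocyte-like cells for 2 members, again untested. Bmp6 was at -0.23 among female-called and 3.50 among male-called cells, and Bmp5 at 0.52 and -0.69. Only 14 male-called BSA cells stood behind the male values.

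Barcodes that the cell filter left out, 534 in FGF8 and 451 in BSA, held UMIs of all 10 members. Gdf6 had 20 and 3 UMIs there (log2 ratio 2.04, 0.29 to 4.43) and Bmp2 was at 0.46. Bmp6 (-1.21, with an interval below 0), Gdf10 (-1.71), Bmp3 (-1.36) and Bmp4 (-0.72) were lower there, and Bmp6 was at 0.18 over the cells kept. Of the 484 Bmp6 UMIs in the BSA barcodes left out, 247 were in 1 barcode, so this ratio rests largely on it.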

How the results depend on the processing

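Every ratio rests on 1 library per condition, so no setting tests the treatment. No paired analysis was possible because there was no replicate in either group. Bmp2 over all cells stayed above 0 in all 8 alternatives: it moved from 0.65 to 0.53 with each cell weighted equally, 0.32 when thinned to 2000 UMIs, 0.78 in female-called cells, 1.07 in male-called cells and 0.75 when centred on the median ratio (-0.10). Gdf5 in chondrocyte-like cells moved from 1.65 to 0.48 with types called per cell, 0.32 with equal weights, 0.63 when thinned to 5000 UMIs and 2.92 in female-called cells, and turned to -0.42 in male-called cells; thinned to 2000 UMIs it gave no ratio. Gdf5 in fibroblast-like cells moved from -0.82 to -0.081 with the stricter filter, 0.93 at a resolution of 0.2, -0.20 with equal weights, -2.13 in female-called cells and, chosen after seeing the data, -1.39 without the 1% of cells with most of its UMIs. At a resolution of 0.2 the fibroblast-like cluster held 1316 and 902 cells, against 3322 and 1713 in the main setting. It left out the Prg4-led cells and others besides: Bmp5, highest in subcluster 3, fell from 1258 to 96 UMIs under FGF8. The part of the Prg4-led cells alone in the changes at this setting was not tested. The count of members called in fibroblast-like cells was 0, and became 1 (Gdf6) at a resolution of 0.2, 4 in female-called cells (Bmp2 higher, Gdf5, Gdf6 and Bmp6 lower), 1 (Bmp2) when centred and, both chosen after seeing the data, 1 (Gdf5) with subclusters in the BSA mix and 2 (Gdf5 and Bmp3) without the top 1% of cells. The count in chondrocyte-like cells was 2 (Gdf5 higher, Bmp3 lower), and became 4 with the stricter filter, 1 with types called per cell, 0 when thinned to 2000 and 1 when thinned to 5000 UMIs, 1 with a minimum of 30 UMIs and 1 without cells holding markers of other types, the last chosen after seeing the data. The members called also changed: they were Gdf5, Bmp4 and Bmp7 in female-called cells (3), Bmp2, Bmp6 and Bmp3 in male-called cells (3), Gdf5, Bmp3 and Bmp4 without the highest doublet scores (3), and Bmp3 and Bmp4 with equal weights (2). Some of these settings hold fewer cells or UMIs and others the same ones, and the cause of the changes was not tested. In fibroblast-like cells Bmp2 stayed above 0, and Bmp3, Bmp4, Bmp5 and Bmp6 below 0, in all 15 alternatives, but Bmp2 ranged from 0.089 (resolution 0.2) to 1.10, Bmp3 from -1.02 to -0.26, Bmp4 from -0.89 to -0.13, Bmp5 from -0.55 to -0.059 and Bmp6 from -1.05 to -0.41. Gdf10 and Bmp1 did in 14 of 15, and Bmp7 kept its sign in 6.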

Other observations

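In clusters that stayed unnamed, some ligands were found in 1 library almost alone. A cluster led by Ms4a4c and Ccr2, genes of monocytes, had 30 Bmp6 UMIs in 464 FGF8 cells and 1 in 225 BSA cells, a log2 ratio of 3.97 (1.38 to 9.32). Only 7 of the 464 cells had a Bmp6 UMI, and 1 cell held 20 of the 30, an unevenness that the interval does not cover. The cluster led by Krt73 and Krt28 had 22 Bmp2 UMIs in 73 FGF8 cells and 0 in 41 BSA cells, while Bmp4 (68 and 55 UMIs) and Bmp7 (49 and 40 UMIs) were at -0.24 and -0.26 there, with intervals that included 0. Both sets of cells were named here after their values were seen, and no test was made.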
